A study of Mus musculus with 4 samples.

Results

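Iron storage, uptake and iron-response genes were followed here through 9 mRNAs, out of 49568 gene symbols in the deposited table, chosen by name for what their proteins do in iron handling. They are the ferritin subunit genes Fth1 and Ftl1, the transferrin receptor gene Tfrc, the endosomal ferrireductase gene Steap3, the iron-regulatory protein genes Aco1 and Ireb2, the iron sensor gene Fbxl5, the ferritin turnover receptor gene Ncoa4 and the heme oxygenase gene Hmox1. The samples were mouse RNA from purified migrasomes (2 libraries) and from cytosol (2 libraries). Migrasomes are large vesicles that grow on the retraction fibres behind a migrating cell. No genotype, treatment, time or cell type is given for either group in the sources used here, nor how the migrasomes were purified, whether cells were pooled, or whether the 2 libraries of a group came from separate cultures. The p-values therefore measure the spread between these libraries, which may be technical.

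Cells take up iron when transferrin binds its receptor at the surface and the pair is internalised, after which the ferric iron is reduced in the endosome and carried into the cytosol. Iron that is not used is stored inside a cage of heavy and light ferritin chains. Iron-regulatory proteins match uptake to storage by binding a stem-loop, the iron-responsive element. In iron-poor cells they block translation of the ferritin mRNAs, which carry the element in the 5′ UTR, and protect the transferrin receptor mRNA, which carries several copies in the 3′ UTR. The mRNAs also differ in where they are translated. Transferrin receptor and Steap3 are membrane proteins made at the endoplasmic reticulum, whereas ferritin and the iron-regulatory proteins are soluble proteins made on free ribosomes.

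The stem-loops are shown here because the ferritin and transferrin receptor mRNAs share them but carry them in different places and numbers. The search, on the sense strand of GENCODE M21 protein-coding transcripts (GRCm38), asked for a C, 5 bases, the loop CAGTGN and 5 more bases, with 5 pairs between the bases on either side of the loop. In each sequence the capitals mark the bulged C and the loop of 6 bases.
Fth1 5′ UTR, chr19:9982732-9982760, plus strand: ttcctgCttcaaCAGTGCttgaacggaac
Ftl1 5′ UTR, chr7:45459779-45459807, minus strand: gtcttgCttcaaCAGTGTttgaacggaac
Tfrc 3′ UTR, chr16:32631219-32631247, plus strand: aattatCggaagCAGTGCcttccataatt
Tfrc 3′ UTR, chr16:32631598-32631626, plus strand: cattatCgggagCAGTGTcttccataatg
Tfrc 3′ UTR, chr16:32631663-32631691, plus strand: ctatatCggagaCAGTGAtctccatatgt
Tfrc 3′ UTR, chr16:32631710-32631738, plus strand: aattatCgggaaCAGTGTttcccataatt
Of the 9 genes, 3 held a match, against 294 of 21877 protein-coding genes (1.34%) in the annotation. The 3 were already known to carry the element, so their match was fixed in advance and the share tests nothing. A match in the 5′ UTR was found in 0.142% of those genes and one in the 3′ UTR in 0.594%. The single ferritin matches have their loops at base 99 of the 929-base Fth1 mRNA and base 90 of the 968-base Ftl1 mRNA. The 4 Tfrc matches have theirs at bases 3327 to 3818 of its 4890-base mRNA, after a coding sequence that ends at base 2432. A match describes letters in the annotated sequence and was not measured in these libraries. The search asked for this loop and all 5 pairs, so elements that depart from that form would be missed.

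**Figure D1:**
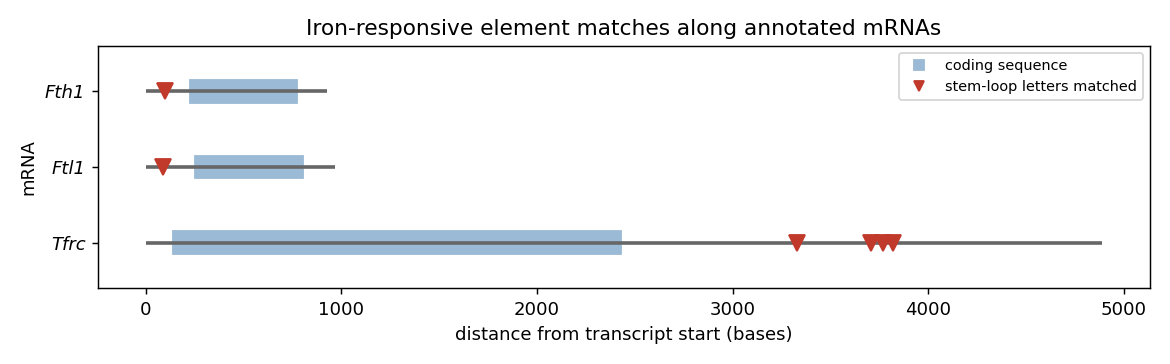
Annotated mRNAs of Fth1, Ftl1 and Tfrc drawn to scale against distance from the transcript start in bases, with the coding sequence as a blue box and matched stem-loops as red triangles. The ferritin matches precede the coding sequence at bases 99 and 90, and the 4 Tfrc matches follow it.

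Each value is a normalised read count as deposited, given for replicate 1 and then replicate 2 of a group. A difference is log2(value + 1) in migrasome minus that in cytosol, and its standard error (SE) comes from limma over the whole table. All 9 genes passed the filter on low values, a minimum of 10 in 2 or more libraries, as did 10860 genes of the table. Tfrc and Steap3 fell in migrasomes, Aco1 and Ncoa4 rose, and Fth1, Ftl1, Ireb2, Fbxl5 and Hmox1 did not pass an adjusted p (Benjamini-Hochberg) of 0.05. So 4 of the 9 passed, against 26.4% of all tested genes, of which 8.68% rose (943) and 17.7% fell (1919). That split was 322 against 2522 with the same total per library and 1194 against 1403 with quantile normalization. The median difference of the 9 genes was 0.28, against -0.0043 over all tested genes. The groups did not overlap for 8 of the 9 genes, Ftl1 being the exception, which compares with 69.5% of all tested genes. Whether a migrasome library holds more migrasomes or more RNA per migrasome cannot be told apart in such bulk samples.

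**Figure D2:**
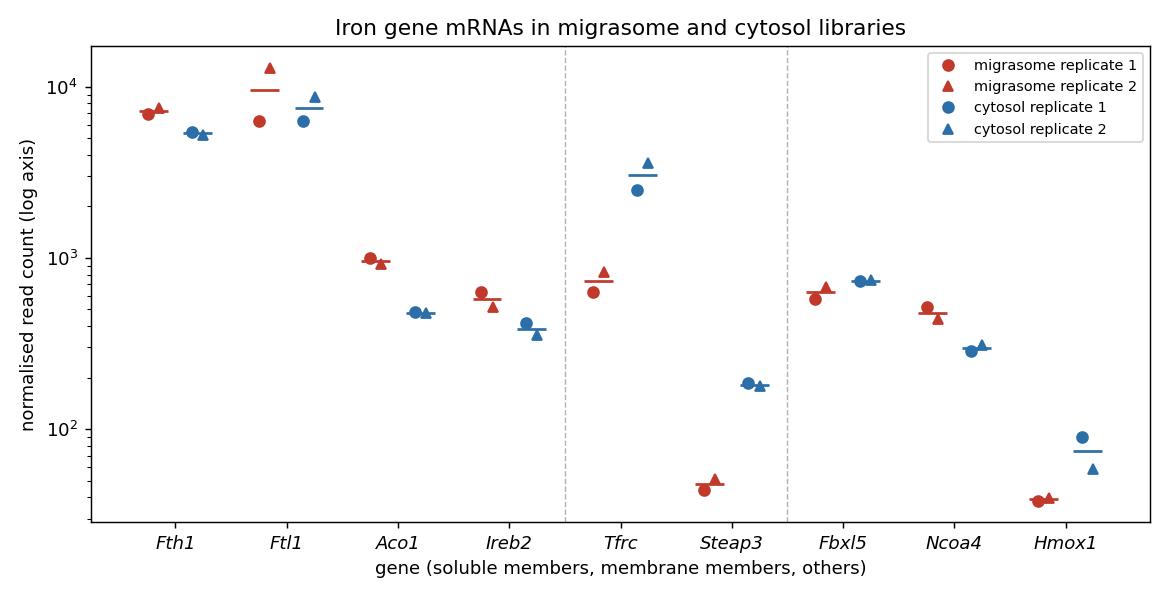
Normalised read count of each of the 9 iron genes in every library, on a log axis, with migrasome in red left of cytosol in blue and short lines at the group means. Both migrasome libraries lie below both cytosol libraries for Tfrc and Steap3 and above them for Aco1, while the Ftl1 values of the 2 groups overlap.

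The uptake genes showed the largest differences of the set. Tfrc (chromosome 16, 32608920 to 32632794, plus strand, GRCm38) encodes the receptor that carries iron-loaded transferrin into the cell. It measured 634 and 828 in the migrasome libraries, against 2486 and 3591 in the cytosol libraries. The higher migrasome value was thus well below the lower cytosol value. The means were 730.7 ± 137 in migrasome and 3038 ± 781 in cytosol (SD, n = 2 each), 4.16-fold lower in migrasome. The difference was -2.04 ± 0.24 (SE, limma adjusted p = 0.00057). It lay within the lowest 2.89% of differences over all tested genes.

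Steap3 (chromosome 1, 120190757 to 120272705, minus strand) encodes the reductase that turns ferric into ferrous iron in endosomes. It measured 43.8 and 51.3 in the migrasome libraries, against 185 and 178 in the cytosol libraries. Its means of 47.6 ± 5.29 in migrasome and 182 ± 4.46 in cytosol (SD, n = 2 each) differed by -1.91 ± 0.26 (SE, limma adjusted p = 0.00084). The migrasome values rest on 31 and 39 reads, and the cytosol values on 238 and 260. The ratio of Tfrc to Steap3 counts overlapped between the groups, at 14.4 and 16.1 in migrasome and 13.5 and 20.1 in cytosol. Both calls held under all 13 alternatives, with differences from -2.35 to -1.78 for Tfrc and from -2.18 to -1.55 for Steap3.

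The ferritin mRNAs, the most abundant of the set per length, did not pass. Fth1 (chromosome 19, 9980598 to 9985098, plus strand) encodes the heavy chain, which oxidises iron on its way into the cage. It measured 6981 and 7496 in the migrasome libraries, against 5471 and 5213 in the cytosol libraries. Both migrasome libraries were above both cytosol libraries, but the log2 difference of 0.44 ± 0.22 (SE) had a limma adjusted p of 0.15, and it was 0.17 with the same total per library and -0.21 with quantile normalization.

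Ftl1 (chromosome 7, 45457944 to 45459884, minus strand) encodes the light chain, which helps the iron core form. It measured 6297 and 12958 in the migrasome libraries, against 6322 and 8776 in the cytosol libraries. In both groups replicate 2 was the higher one, and the migrasome libraries differed from each other by more than the group means did. Its difference was 0.28 ± 0.34 (SE, limma adjusted p = 0.55). It was 0.80 without migrasome replicate 1, where it passed (adjusted p = 0.029), 0.51 without cytosol replicate 2, 0.042 without cytosol replicate 1 and -0.24 without migrasome replicate 2, and it was 0.0058 with the same total per library and -0.37 with quantile normalization. The ratio of Fth1 to Ftl1 was 1.11 and 0.579 in migrasome and 0.866 and 0.594 in cytosol, so the groups overlapped.

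Near-identical copies can share reads with Ftl1. Ftl1-ps1, a copy on chromosome 13, stood at 28.3 and 79.0 in migrasome, against 29.5 and 41.2 in cytosol, and was also highest in migrasome replicate 2. Its value was between 0.0045 and 0.0061 of that of Ftl1 in every library. Exons of the opposite-strand model Gm10252 cover 26.5% of the annotated Ftl1 exon bases, and the same-strand model Gm22133 lies over 8.13% of them. Both models are listed at 0 in all 4 libraries. The sources used here do not state the strand setting of the counting. The part of these copies and models in the Ftl1 values was not tested.

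Among the iron-regulatory protein genes, Aco1 rose. Aco1 (chromosome 4, 40143081 to 40198338, plus strand) encodes a protein that is a cytosolic aconitase when it holds an iron-sulfur cluster and binds iron-responsive elements when it does not. It measured 993 and 924 in the migrasome libraries, against 483 and 474 in the cytosol libraries. Both groups were tight, and the migrasome mean of 958 ± 48.7 was 2.00 times the cytosol mean of 479 ± 6.62 (SD, n = 2 each). Its difference was 1.00 ± 0.20 (SE, limma adjusted p = 0.0057), and it held under all 13 alternatives with values from 0.73 to 1.05.

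Ireb2 (chromosome 9, 54863789 to 54912530, plus strand) encodes the other iron-regulatory protein, which is degraded when iron is plentiful. It measured 636 and 520 in the migrasome libraries, against 417 and 355 in the cytosol libraries. The groups did not overlap, but the log2 difference of 0.58 ± 0.21 (SE) did not pass (limma adjusted p = 0.072). It passed without migrasome replicate 2 (0.72, adjusted p = 0.015), and it was 0.31 with the same total per library. The ratio of Aco1 to Ireb2 counts was 1.56 and 1.78 in migrasome and 1.16 and 1.33 in cytosol.

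Of the remaining 3 of the 9 genes, Ncoa4, Fbxl5 and Hmox1, Ncoa4 passed. Ncoa4 (chromosome 14, 32159865 to 32179855, plus strand) encodes the receptor that delivers ferritin to autophagosomes. It measured 515 and 440 in the migrasome libraries, against 285 and 310 in the cytosol libraries. The groups did not overlap, and they differed by 0.68 ± 0.21 (SE, limma adjusted p = 0.040). That call was lost without migrasome replicate 1 (0.56, adjusted p = 0.073), without cytosol replicate 1 (0.62, 0.27) and without cytosol replicate 2 (0.74, 0.16). It was also lost with the same total per library (0.41, 0.16), with no filter on low values and without a variance trend.

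Fbxl5 (chromosome 5, 43744615 to 43821638, minus strand) encodes a ubiquitin ligase subunit that binds iron and marks the iron-regulatory proteins for degradation. It stood at 578 and 679 in migrasome, against 733 and 739 in cytosol. The difference of -0.23 ± 0.20 (SE, limma adjusted p = 0.40) was close to its own error.

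Hmox1 (chromosome 8, 75093621 to 75100589, plus strand) encodes the inducible heme oxygenase, which frees iron from heme and is held by its tail in the endoplasmic reticulum membrane. It measured 38.2 and 39.5 in the migrasome libraries (27 and 30 reads), against 90.0 and 58.3 in the cytosol libraries (116 and 85 reads). Both migrasome values were below both cytosol values, but the cytosol libraries differed widely, and the log2 difference of -0.88 ± 0.32 (SE) did not pass (limma adjusted p = 0.065). It passed with the same total per library (-1.15, adjusted p = 0.036) and without migrasome replicate 2 (-0.91, 0.043), and it was -0.57 without cytosol replicate 1 and -0.47 with quantile normalization. The constitutive heme oxygenase gene Hmox2, whose protein is anchored in the same way, stood at 218 and 203 in migrasome, against 188 and 174 in cytosol (0.22 ± 0.22, limma adjusted p = 0.48), and its difference was -0.056 with the same total per library. The ratio of Hmox1 to Hmox2 was 0.175 and 0.195 in migrasome and 0.479 and 0.335 in cytosol.

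**Figure D3:**
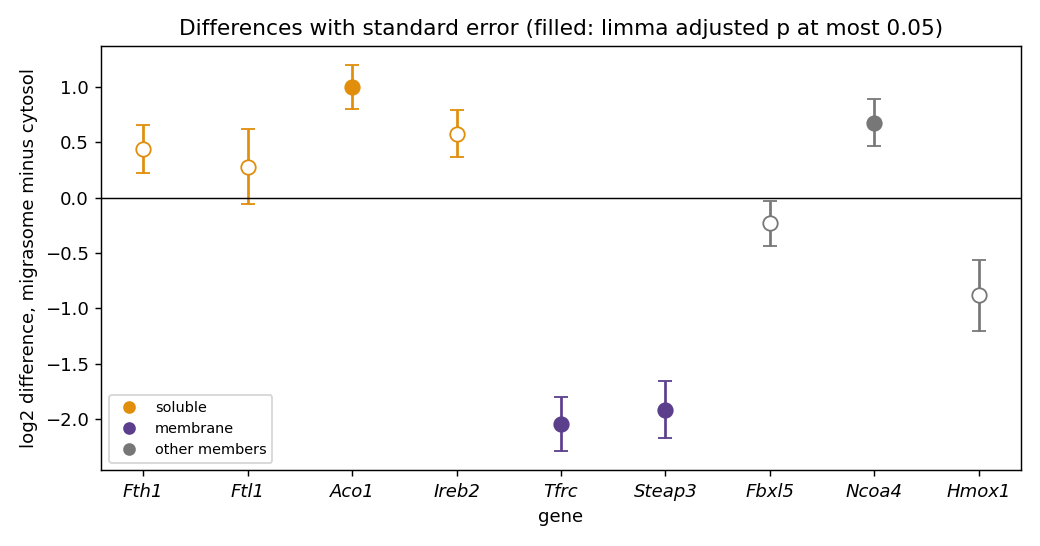
Log2 difference (migrasome minus cytosol) of each of the 9 iron genes, with bars of 1 SE from limma and filled points for an adjusted p of at most 0.05. The membrane members Tfrc and Steap3 lie at -2.04 and -1.91, and the 4 members classed as soluble between 0.28 and 1.00. Fbxl5, Ncoa4 and Hmox1, placed in neither class, lie at -0.23, 0.68 and -0.88.

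Relative to the membrane members, the soluble members were higher in migrasomes than in cytosol. The median difference of the 4 members classed as soluble (Fth1, Ftl1, Aco1 and Ireb2) was 0.51. That of the 2 classed as membrane members (Tfrc and Steap3) was -1.98, a gap of 2.49 on the log2 scale. Fbxl5, Ncoa4 and Hmox1 were placed in neither class, and their differences were -0.23, 0.68 and -0.88. The gap therefore covers only the members of the 2 classes. Of the soluble members 1 rose and none fell, whereas both membrane members fell, the shares over all tested genes being 8.68% that rose and 17.7% that fell. Ratios of 2 genes within a library do not depend on how libraries are scaled to each other. For each of the 8 pairs of a soluble with a membrane member, the ratio was higher in both migrasome libraries than in both cytosol libraries. The change in the log2 ratio ran from 2.21 (Ftl1 to Steap3) to 3.05 (Aco1 to Tfrc), while the 2 libraries of a group differed by 0.020 to 0.81. The pairs share genes, so they are not independent of each other. Tfrc and Steap3 by themselves did not overlap between the groups, which was so for 69.5% of all tested genes. How often other genes give such a ratio to Tfrc or Steap3 was not tested. No single ratio can pass an exact permutation test of 2 libraries against 2, whose smallest two-sided p is 0.33.

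The ferritin to receptor ratio shows the size of the change. There were 11.0 and 9.06 Fth1 counts for each Tfrc count in migrasome, against 2.20 and 1.45 in cytosol. For Aco1, the ratio to Tfrc was 1.57 and 1.12 in migrasome and 0.194 and 0.132 in cytosol, above 1 in both migrasome libraries and below 1 in both cytosol libraries. For Ireb2 the ratio to Tfrc was 1.00 and 0.628 in migrasome and 0.168 and 0.099 in cytosol. These are ratios of counts and are not corrected for length.

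**Figure D4:**
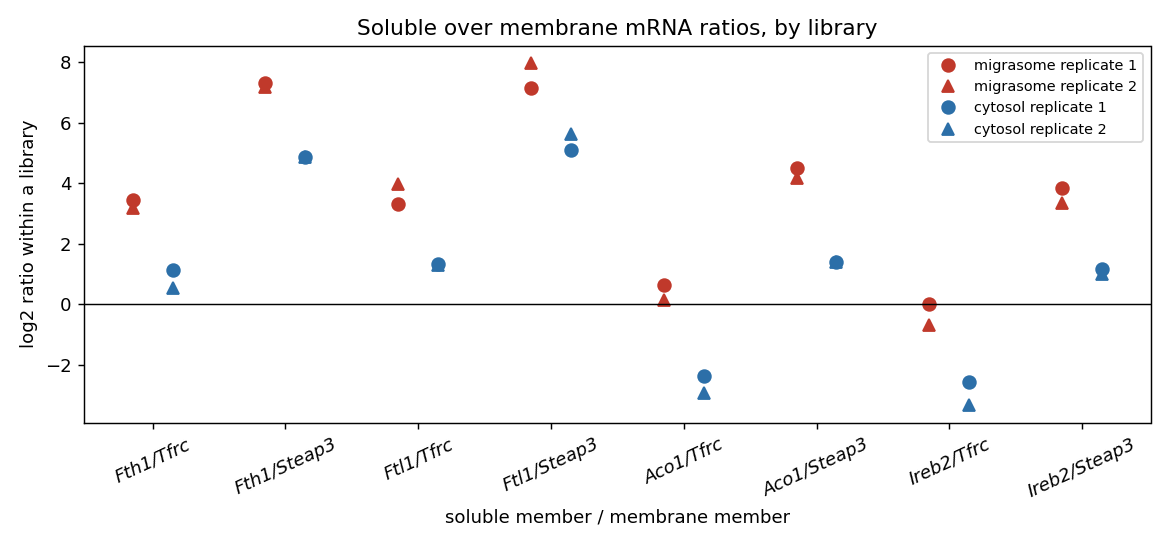
Log2 ratio of each soluble to each membrane member within every library, with migrasome in red left of cytosol in blue. In all 8 pairs both migrasome points lie above both cytosol points, by 2.21 to 3.05 on average. Values of Tfrc and Steap3 alone did not overlap between the groups, as for 69.5% of all tested genes.

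Levels of different genes were compared as normalised counts per kilobase of annotated exon, a length that includes exons of minor transcripts. The ferritin mRNAs came first in both groups, but their order depended on the length used. Ftl1 stood at 4700 and 9670 per kilobase in migrasome, against 4718 and 6549 in cytosol, and Fth1 followed at 2012 and 2161 in migrasome and 1577 and 1503 in cytosol. The Fth1 exons cover 3469 bases, however, and its mRNA is 929 bases long. Per kilobase of mRNA Fth1 stood at 7514 and 8069 in migrasome, against 5890 and 5611 in cytosol, and Ftl1 at 6506 and 13390 in migrasome, against 6531 and 9066 in cytosol. On that scale the ferritin genes overlapped in migrasome. The mRNA length was used only for Fth1, Ftl1 and Tfrc, so the order of the other genes may also depend on the length. Per kilobase of annotated exon, the order after the ferritins differed between the groups. In migrasome Aco1 came next (221 and 206 per kilobase) and then Tfrc (102 and 134), and in cytosol Tfrc (402 and 580) came before Aco1 (107 and 105). Fbxl5 and Ireb2 overlapped in migrasome, at 59.4 and 69.7 and at 67.1 and 54.8 per kilobase, and so did Ireb2 and Ncoa4 (55.0 and 46.9). In cytosol Hmox1 (51.4 and 33.3 per kilobase) overlapped Ireb2 (44.0 and 37.5), and Ncoa4 (30.4 and 33.1) overlapped Steap3 (32.3 and 31.2). Steap3 was lowest in migrasome, at 7.67 and 8.98 per kilobase, below Hmox1 at 21.8 and 22.5.

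The other iron and heme carriers, receptors and oxidoreductases of membranes fell or did not pass. Of 22 such genes measured 12 were tested: 7 were called lower, 5 were not called and none was called higher, where 17.7% of all tested genes fell and 8.68% rose. Hfe and Slc46a1 reached the filter value in cytosol alone, and without them 6 of 10 were called lower. The median was -1.23, against -0.0043 over all tested genes. The count that fell was 5 with no filter on low values, 4 without cytosol replicate 1 and 9 without migrasome replicate 2, and it was 6 with quantile normalization and 9 with the same total per library. Lrp1, a large endocytic receptor that takes up heme bound to hemopexin, stood at 805 and 1054 in migrasome, against 2777 and 2233 in cytosol (-1.43 ± 0.22, limma adjusted p = 0.0017). Slc39a14, a transporter of iron that is not bound to transferrin, stood at 148 and 299 in migrasome, against 799 and 879 in cytosol. Slc11a2, which carries ferrous iron out of endosomes, stood at 211 and 299 in migrasome, against 513 and 567 in cytosol. Both fell, by 1.99 ± 0.30 and 1.10 ± 0.23 on the log2 scale. The lysosomal channel gene Mcoln1 and the macrophage transporter gene Slc11a1 also fell, and so did the heme and folate transporter gene Slc46a1, whose migrasome values were at or below the value of 3 reads (4.24 and 3.95). These 3 calls were lost without cytosol replicate 1. Of the alternatives the call was lost in 1 of 12 for Mcoln1, 4 of 13 for Slc11a1 and 5 of 12 for Slc46a1. For Slc11a1 and Slc46a1 these included no filter on low values and quantile normalization.

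The Steap paralogs did not all move as far as Steap3. Steap1 fell, at 67.9 and 162 in migrasome, against 336 and 536 in cytosol (-2.01 ± 0.38, limma adjusted p = 0.0050). Steap2 stood at 590 and 708 in migrasome, against 908 and 959 in cytosol, and did not pass (-0.53 ± 0.20, limma adjusted p = 0.078). It passed without migrasome replicate 2 (-0.66), with the same total per library (-0.80) and with quantile normalization (-0.65). Whether the paralogs differ from each other in this respect was not tested. Steap4 and the second transferrin receptor gene Tfr2 were too low to be tested. The iron exporter gene Slc40a1 and the ferric reductase gene Cybrd1 had no read in any library, below the value of 3 reads, which was 4.24 and 3.95 in migrasome and 2.33 and 2.06 in cytosol. That limit covers counting error only.

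Of 14 tested soluble iron chaperones and cytosolic iron-sulfur assembly genes 2 rose and 12 did not pass, where 8.68% of all tested genes rose. The median difference of the list was 0.27, and it was -0.0023 with the same total per library. The 2 that rose were Pcbp2, an RNA-binding protein that also hands iron to ferritin, and Glrx3, a glutaredoxin that carries iron-sulfur clusters. Pcbp2 stood at 3947 and 2632 in migrasome, against 1576 and 1327 in cytosol (1.16 ± 0.24, limma adjusted p = 0.0081), and held under all 13 alternatives. Glrx3 stood at 3029 and 2566 in migrasome, against 1402 and 1540 in cytosol (0.92 ± 0.21, limma adjusted p = 0.011). Its call was lost without cytosol replicate 1 (adjusted p = 0.11) or 2 (0.057), and its difference was 0.56 with quantile normalization.

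**Figure D5:**
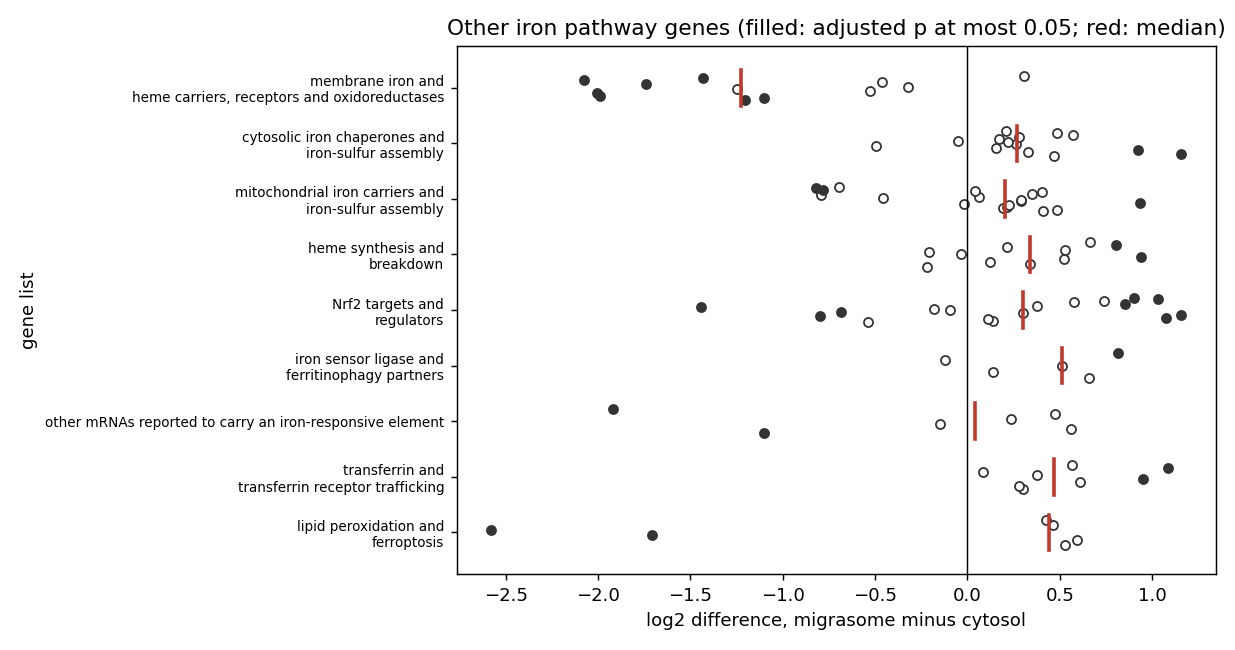
Log2 difference (migrasome minus cytosol) of every tested gene in 9 lists of other iron pathway genes, with filled points for an adjusted p of at most 0.05 and a red line at each list's median. The membrane carriers and receptors have a median of -1.23, and the medians of the other 8 lists lie between 0.04 and 0.51. With the same total per library, not drawn, these were -1.48 and between -0.23 and 0.24.

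Of 18 tested genes for mitochondrial iron carriers and iron-sulfur assembly 1 rose and 2 fell, with a median of 0.20. That median was -0.067 with the same total per library. Over all tested genes 8.68% rose and 17.7% fell. The one that rose was the chaperone gene Hspa9, at 16152 and 11318 in migrasome, against 7036 and 7110 in cytosol (0.93 ± 0.25, limma adjusted p = 0.025). The 2 that fell were genes of the inner membrane, the iron carrier Slc25a37 (-0.82 ± 0.23) and the transporter Abcb10 (-0.78 ± 0.22), each with a limma adjusted p of 0.029. With cytosol replicate 1 left out no gene of the list passed, these 3 having an adjusted p (limma) of 0.16 to 0.22. Hspa9 also lost its call with quantile normalization, at 0.26. Of 11 tested heme synthesis and breakdown genes 2 rose and none fell (median 0.34, and 0.064 with the same total per library). These were Urod, a decarboxylase of heme synthesis (0.94 ± 0.26, limma adjusted p = 0.025), and Blvra, the biliverdin reductase that acts after heme oxygenase (0.80 ± 0.24, limma adjusted p = 0.035). Neither passed without cytosol replicate 2 or with the same total per library.

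Hmox1 is a target of the stress-response factor Nrf2, and the other Nrf2 targets and regulators went both ways. Of 17 tested 5 rose and 3 fell (median 0.30), where 8.68% of all tested genes rose and 17.7% fell. The list's median was 0.028 with the same total per library. Nqo1, a quinone reductase, stood at 105 and 121 in migrasome, against 52.0 and 48.0 in cytosol (1.16 ± 0.27, limma adjusted p = 0.013). The pentose phosphate enzyme gene Taldo1 rose by 1.03 ± 0.23, and Mafg, G6pdx and Me1 rose by 1.08, 0.85 and 0.90. Mafg lost its call without migrasome replicate 2 (0.57, adjusted p = 0.057), and Me1 without migrasome replicate 1 (0.59, 0.077). Of 13 alternatives the call was lost in 6 for Mafg, 5 for Me1, 3 for G6pdx, 2 for Nqo1 and 1 for Taldo1. The largest fall was that of the membrane cystine transporter gene Slc7a11, at 124 and 279 in migrasome, against 535 and 483 in cytosol (-1.44 ± 0.33, limma adjusted p = 0.013). It fell by 0.86 without migrasome replicate 1. Mafk (-0.80) and Gclc (-0.69) also fell, with the call lost in 3 and 6 alternatives. Without cytosol replicate 2 the counts were 1 that rose and 1 that fell, without cytosol replicate 1 they were 3 and 1, and with the same total per library 2 and 4.

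Of 10 measured other mRNAs reported to carry an iron-responsive element 6 were tested, with 2 that fell and 4 that did not pass (median 0.04). The share of all tested genes that fell was 17.7%. With the same total per library the list's median was -0.23. App, the amyloid precursor gene for a membrane protein, stood at 378 and 357 in migrasome, against 1647 and 1171 in cytosol (-1.92 ± 0.22, limma adjusted p = 0.00055). Slc11a2, given above, was the other that fell. Cdc42bpa, a kinase gene, stood at 540 and 540 in migrasome, against 451 and 468 in cytosol, and did not pass (0.23, and -0.039 with the same total per library).

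The genes for transferrin receptor trafficking, whose proteins are mostly soluble or peripheral, had 2 calls. Of 8 tested 2 rose and none fell (median 0.47), where 8.68% of all tested genes rose and 17.7% fell. The list's median was 0.20 with the same total per library. The clathrin heavy chain gene Cltc stood at 6586 and 4526 in migrasome, against 2924 and 2267 in cytosol (1.08 ± 0.25, limma adjusted p = 0.013), and Exoc6, an exocyst subunit gene, rose by 0.95 ± 0.31 (limma adjusted p = 0.046). Neither passed without cytosol replicate 2, Cltc was 0.57 with quantile normalization, where it lost its call, and Exoc6 lost its call in 8 of 13 alternatives. Of the list, 5 of the 8 rose without migrasome replicate 2. Among 5 partners of Fbxl5 and Ncoa4, 1 rose, the autophagy receptor gene Tax1bp1 (0.82 ± 0.22, limma adjusted p = 0.024). Its call was lost in 6 of 13 alternatives. These included leaving out either cytosol library, the same total per library and quantile normalization. The ligase subunit gene Skp1a stood at 3075 and 2268 in migrasome, against 1614 and 1730 in cytosol (0.66 ± 0.22, limma adjusted p = 0.051).

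Genes with the profile most like Tfrc, Fth1 and Hmox1 were found by the distance between log2 values centred over the 4 libraries, among 8248 tested genes with a mean of at least 50. The nearest to Tfrc were the syndecan gene Sdc4 (0.062 log2 units), the lamin B receptor gene Lbr (0.095) and the acyltransferase gene Agpat9 (0.14). Sdc4 stood at 380.4 and 511 in migrasome, against 1444 and 2145 in cytosol. The nearest to Fth1 were Qser1 (0.040), Apbb1 (0.054) and Tead2 (0.057), none of which passed. The nearest to Hmox1 were Stard9 (0.11), Rai1 (0.12) and Sfswap (0.12). With 4 libraries in 2 groups such a distance describes the values and no more.

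The libraries held 5171092 to 8608369 reads assigned to genes, fewer in migrasome than in cytosol. Markers of cell types that specialise in iron were scarce. None of 9 erythroid markers reached the filter, with summed values of 11.3 and 9.21 in migrasome and 6.21 and 11.7 in cytosol, and Hba-a2, Hbb-bt, Slc4a1 and Alas2 had no read in any library. The summed values of 9 macrophage markers were 55.2 and 46.1 in migrasome and 120 and 85.7 in cytosol, mostly from Slc11a1, and Cd163 had no read. The summed values of 7 hepatocyte markers were 15.6 and 17.1 in migrasome and 17.1 and 11.7 in cytosol, with Alb and Hamp at 0. All 9 fibroblast markers were tested, of which 6 fell and 1 rose, where 17.7% of all tested genes fell and 8.68% rose. The summed values of these markers were 73688 and 60231 in migrasome and 57723 and 52974 in cytosol. Those sums are mostly Vim, which rose (33076 and 26052 in migrasome, against 16385 and 14221 in cytosol), and S100a4, which did not pass (37523 and 29912 in migrasome, against 22885 and 24440 in cytosol), while the median difference of the list was -1.97. The mRNAs of proteins known on migrasomes fell in 8 of 9 cases, with summed values of 2980 and 3615 in migrasome and 9324 and 8886 in cytosol. Of 5 tested nuclear RNAs 2 fell, and the summed values of all 7 measured were 12131 and 16998 in migrasome and 81271 and 78449 in cytosol, so RNAs of the nucleus were present in both. Those sums are mostly Rn7sk, which fell (6647 and 12733 in migrasome, against 69225 and 71563 in cytosol). Terc also fell, while Malat1, Neat1 and Kcnq1ot1 did not pass (-0.79, -0.86 and -0.58). The part of any of these markers in the results was not tested.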

How the data were processed

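RNA of purified migrasomes and cytosol was sequenced in 2 libraries per group, grouped by the sample titles. Cutadapt, Trimmomatic, FastQC, STAR, HTSeq, DESeq and the build GRCm38 are named in the submitters' processing notes, but neither an annotation nor a strand setting. The deposited table holds a signal for each gene: read counts over a size factor, as its values and the DESeq entry in those notes show. All values (100%) were whole multiples of the value of 1 read within 0.001, so whole reads were recovered. Chi-square per degree of freedom, over genes with at least 20 summed reads, was 27.9 between migrasome and 17.6 between cytosol libraries, so neither pair is a repeat of a single library.

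Differences in log2(value + 1) were tested in R 4.3.3 by limma 3.58.1, using eBayes with its trend option and no replicate block. Genes needed 10 or more in 2 or more libraries. The log scale understates the change of low genes. The p-values were adjusted over 10860 genes, threshold 0.05. edgeR 4.0.16 and DESeq2 1.42.0 ran on the recovered reads as alternatives, and the limma script was tested on simulated data. Positions, exon lengths and stem-loops came from GENCODE M21. Figures used matplotlib 3.10.9.

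The 9 genes, the lists and the tests were chosen with earlier results of these data known. The rule for other named genes took, in each list, the 3 highest by level and the largest call in each direction, then paralogs and the nearest profiles. Slc39a14, Slc11a2, Slc11a1, Mcoln1, Blvra, Exoc6, Mafg, Me1, G6pdx, Gclc, Mafk and Abcb10 were named after their values were seen. A description of predicted membrane segments, planned from protein sequences, was not run. Some results that this rule would name are not reported here.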

Additional observations from a re-analysis of the deposited data

How the results depend on the processing

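Results were recomputed with a pseudocount of 10, other filters and scalings, no variance trend, edgeR, DESeq2, a replicate block, and without each library. Tfrc, Steap3 and Aco1 kept direction and call under all 13. Of 38 called genes named, 15 kept their call throughout and 23 lost it in at least 1. Quantile normalization raised the median difference of all genes by 0.12 and the same total per library lowered it by 0.27. Counts of genes that rose, 943 in the main test, were 393 with no filter, 322 with the same total per library, 483 without a variance trend, 1802 with the replicate block and 231 to 2085 with one library left out. Those that fell, 1919, were 1147 to 2800 with one library left out. Ncoa4 (0.68) lost its call with no filter (0.68, limma adjusted p = 0.072), the same total (0.41) and no trend (0.68, adjusted p = 0.080), and was 0.56 to 0.79 with one library left out. Hmox1 passed with the same total (-1.15) and was -1.19 to -0.57 with one library left out. With the replicate block Ireb2 (0.58, limma adjusted p = 0.025) and Hmox1 (-0.88, 0.013) also passed. Ireb2 was 0.43 to 0.72 with one library left out. Fth1 reversed with quantile normalization (-0.21), as did Ftl1 (-0.37), which was -0.24 to 0.80 with one library left out. The gap between soluble and membrane medians was 2.14 with quantile normalization and 2.35 to 2.68 with one library left out. Differences of uncalled genes changed sign for Cdc42bpa (-0.039) and Hmox2 (-0.056) with the same total, for Cpox with DESeq2 (0.0062) and with one library left out (-0.23 to 0.16), and for Ftl1-ps1 with one library left out (-0.29 to 1.16). The cause was not tested. Deviations of same-numbered libraries correlated at 0.23, but with 2 pairs and no label tying them, the numbers are not shown to pair the libraries. Depth limits Steap3 and Hmox1 most, at 27 to 39 reads per migrasome library.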

Other observations

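Genes of lipid peroxidation and ferroptosis, a cell death that depends on iron, held calls in 1 direction. Of 6 tested genes 2 fell and 4 did not pass, where 17.7% of all tested genes fell and 8.68% rose. The median of the list was 0.44 on the log2 scale, and 0.17 with the same total per library. Lpcat3, a lysophospholipid acyltransferase of the endoplasmic reticulum membrane, stood at 46.7 and 60.5 in migrasome, against 347 and 299.7 in cytosol (-2.58 ± 0.25, limma adjusted p = 0.00045). Slc3a2, the heavy chain that partners Slc7a11 in the cystine transporter, stood at 253 and 328 in migrasome, against 970 and 914 in cytosol (-1.71 ± 0.21). Both calls held under all 13 alternatives. The peroxidase gene Gpx4 stood at 4114 and 2957 in migrasome, against 2481 and 2361 in cytosol, and did not pass (0.53 ± 0.23, limma adjusted p = 0.11). It passed without migrasome replicate 2 (0.77, adjusted p = 0.0066), and it was 0.29 without migrasome replicate 1, 0.25 with the same total per library and 0.089 with quantile normalization. Nor did the acyl-CoA ligase gene Acsl4 pass, at 479 and 415 in migrasome, against 309 and 283 in cytosol (0.59 ± 0.21, limma adjusted p = 0.061), although it passed without migrasome replicate 2 (0.70) and with quantile normalization (0.67) and was 0.32 with the same total per library.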
